A study of Mus musculus with 4 samples.

Results

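The genes described here are 10 gut hormone genes of the intestinal epithelium, chosen by symbol from the 27998 genes of the count tables: Gip, Gcg, Pyy, Sst, Cck, Sct, Tac1, Nts, Ghrl and Tph1. They were counted in 4 single-cell libraries of sorted live epithelial cells (EpCAM positive, CD45 negative) from enriched small intestinal crypts of 8-week-old mice. 2 libraries were labelled Slc7a5 fl/fl, in which the exon of the amino acid transporter gene Slc7a5 is flanked by loxP sites and intact, and 2 were labelled Slc7a5 IEC-KO, in which a Cre recombinase under the villin promoter deletes that exon in the intestinal epithelium. Both genotypes carry the floxed alleles, and no library of mice with Cre alone is compared here. The records name 4 mice but not how they were divided among the libraries, so the p-values measure the spread between libraries (n = 2 per genotype), which may be technical. Hormones were measured in 580 of 26498 cells, those with at least 1 transcript count of 4 or more of the 10 endocrine genes Chga, Chgb, Neurod1, Pcsk1n, Scgn, Cpe, Fev, Scg3, Cryba2 and Rfx6 (called gated cells below), and in the other 25918 cells, whose hormone transcripts are called stray below for their place outside the gate only.

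Enteroendocrine cells are rare secretory cells scattered through the gut epithelium. They arise from crypt stem cells, sense nutrients on the lumen side, and release peptide hormones or serotonin from dense-core granules on the other side, where these reach nerves and blood. Each cell makes a small set of hormones that depends on its position along the gut and on its age as it moves from crypt to villus, and the sets are named by letters: K cells for Gip, L cells for Gcg and Pyy, I cells for Cck, S cells for Sct, D cells for Sst, X cells for Ghrl, N cells for Nts, and enterochromaffin cells for Tph1 and Tac1.

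The promoters of 5 members are printed because the results below turn on these genes: Gip had the highest level, Gcg, Pyy and Cck were counted in the same cells, and Tac1 was also counted outside endocrine cells. RefSeq gave a start for all 10 members. For Tac1 this start lies inside the gene as GENCODE M21 places it (chr6:7554879-7565834), so most of the window printed for it lies within that gene. Each line holds the 250 bases before the start on the gene's own strand (GRCm38.p6), in lower case, with each E-box (CANNTG, the core that basic helix-loop-helix factors such as NEUROD1 bind) in capitals.
Gip, plus strand, chr11:96024295-96024544: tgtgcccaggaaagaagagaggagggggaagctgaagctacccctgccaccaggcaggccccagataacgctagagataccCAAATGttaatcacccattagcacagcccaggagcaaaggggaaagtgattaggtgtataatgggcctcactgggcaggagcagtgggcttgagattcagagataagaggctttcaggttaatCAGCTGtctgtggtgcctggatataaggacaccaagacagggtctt
Gcg, minus strand, chr2:62483654-62483903: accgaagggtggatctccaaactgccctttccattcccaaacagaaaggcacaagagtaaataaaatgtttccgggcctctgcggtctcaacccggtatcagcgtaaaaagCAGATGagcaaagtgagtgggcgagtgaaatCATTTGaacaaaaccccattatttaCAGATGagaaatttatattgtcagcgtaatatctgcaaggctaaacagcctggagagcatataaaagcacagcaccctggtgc
Pyy, minus strand, chr11:102107833-102108082: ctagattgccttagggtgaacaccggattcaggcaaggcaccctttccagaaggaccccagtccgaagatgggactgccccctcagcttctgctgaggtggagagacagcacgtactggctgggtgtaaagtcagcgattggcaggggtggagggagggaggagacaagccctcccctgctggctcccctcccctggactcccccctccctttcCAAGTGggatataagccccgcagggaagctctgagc
Cck, minus strand, chr9:121495695-121495944: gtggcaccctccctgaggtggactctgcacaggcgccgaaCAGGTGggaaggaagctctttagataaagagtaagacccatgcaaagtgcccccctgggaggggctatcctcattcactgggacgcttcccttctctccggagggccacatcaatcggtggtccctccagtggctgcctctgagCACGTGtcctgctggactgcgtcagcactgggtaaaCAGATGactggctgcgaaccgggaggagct
Tac1, plus strand, chr6:7554811-7555060: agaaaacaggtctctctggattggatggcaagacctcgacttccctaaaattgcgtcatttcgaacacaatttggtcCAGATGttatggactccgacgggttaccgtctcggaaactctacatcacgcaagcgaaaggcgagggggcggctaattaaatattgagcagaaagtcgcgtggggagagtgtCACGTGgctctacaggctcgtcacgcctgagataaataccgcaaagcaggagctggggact
The number of E-boxes was 2 for Gip, 3 for Gcg, 1 for Pyy, 3 for Cck and 2 for Tac1, and 66.2% of all 32536 promoters of this length held at least 1. The form CAGATG, searched on both strands and counted within CANNTG too, occurred 2 times before Gcg and 1 time each before Cck and Tac1, against 14.4% of all promoters with at least 1. The GATA-type letters AGATAA, searched on both strands, stood 2 times before Gip and 1 time each before Cck and Tac1 (9.97% of all promoters), and the homeodomain letters TAATTA 1 time before Tac1 (4.84%). These matches describe letters in the window and nothing about binding.

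The libraries differed in depth. Those labelled Slc7a5 fl/fl held 3633 and 3217 cells with medians of 22242 and 32549 unique molecular identifiers (UMIs, each tagging the 3′ end of 1 captured transcript) per cell, and those labelled Slc7a5 IEC-KO held 10004 and 9644 cells with medians of 6699.5 and 9717.5 UMIs. Any pair of libraries shared between 14 and 132 cell barcodes. Slc7a5 itself was counted at 1.23 and 1.07 UMIs per 1000000 UMIs (CPM) in the libraries labelled fl/fl and at 3.98 and 4.84 in those labelled IEC-KO; a tag at the 3′ end lies outside the deleted exon and cannot check the deletion, so the genotypes are given as labelled throughout. Gene positions are those of GENCODE M21 on GRCm38, and all 10 genes are annotated as protein coding. Below, a level (CPM) is the number of UMIs in 1000000 UMIs of the cells named, not scaled by gene length because each transcript is tagged once, and values in 4 libraries are given in the order fl/fl 1, fl/fl 2, IEC-KO 1 and IEC-KO 2. A change is a log2 fold change, IEC-KO against fl/fl, from edgeR on UMIs summed per library with TMM scaling, that is, relative to the middle of the genes tested, and p-values are adjusted over all genes tested by the Benjamini-Hochberg method.

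The gate did not hold the same cells in each library. It took 160, 151, 110 and 159 cells, of which 137, 129, 13 and 64 lay in Paneth-like clusters and only 18, 16, 91 and 80 in the cluster led by Chgb, Fabp5 and Chga, the enteroendocrine-like cluster. That cluster was made without any of the 10 hormone genes, and it held 20, 17, 105 and 87 cells. The median depth of gated cells was 62679.5, 66899, 8507 and 17976 UMIs, and the gate counts endocrine genes at each cell's own depth. All 16 Paneth markers had UMIs in the gated cells of every library, where they made up 49.6%, 50.9%, 28.7% and 36.2% of UMIs. Cells outside the gate also had all 16, at 44.6%, 46.5%, 27.8% and 29.1% of UMIs, so these shares do not set gated cells apart. The 10 endocrine genes made up 0.0216%, 0.0154%, 0.253% and 0.105% of the UMIs of gated cells. The name endocrine therefore holds for the cluster and not for most gated cells of the libraries labelled fl/fl, so the members are described in both. Several companion genes and all likeness values below are given for gated cells only, with no value of the cluster beside them. In the cluster too the Paneth markers made up 40.4%, 41.5%, 17.7% and 21.3% of UMIs, and the part of these transcripts in the comparisons of genotypes was not tested.

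The share of gated cells was 4.40%, 4.69%, 1.10% and 1.65% of all cells, a mean of 4.55% ± 0.205 (SD, n = 2) in the libraries labelled fl/fl and 1.37% ± 0.388 (n = 2) in those labelled IEC-KO. The order was the opposite for the enteroendocrine-like cluster, with 0.551% (95% Clopper-Pearson interval 0.337 to 0.849), 0.528% (0.308 to 0.845), 1.05% (0.859 to 1.27) and 0.902% (0.723 to 1.11). Intervals cover counting error only. The gate took the order of the cluster when each cell was thinned to 3500 UMIs before it, at 0.138%, 0.155%, 0.470% and 0.415% of cells. Under a lower limit of 9670 UMIs for all libraries both kept their own order. The cluster then held 0.531%, 0.528%, 1.17% and 1.17% of cells and the gate 4.91%, 4.69%, 1.70% and 2.57%. In each case the genotypes did not overlap, and the exact two-sided permutation test gave p = 0.333, the smallest that 2 against 2 libraries allow.

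The level of every member was higher in the cluster than in all cells outside the gate. This compares levels and not shares of all hormone UMIs. Paneth-like cells outside the gate held 31480, 35847, 17835 and 30208 Gip UMIs, against 3510, 4357, 38522 and 35931 in the cluster. The level of Gip, the incretin of K cells that raises insulin release after a meal, was 6339, 8626, 42027 and 28789 CPM in the cluster against 347, 371, 362 and 439 in all cells outside the gate, a ratio of 18.2, 23.3, 116 and 65.6 within each library. Gated cells outside the cluster had 385, 398, 2124 and 453, so in 3 of the 4 libraries they stood within a factor of 1.11 of the stray level. The ratio of cluster to stray level was lowest for Tac1, the precursor of substance P, at 2.58, 2.33, 5.07 and 2.51. Among the other members the lowest ratios were those of Nts in fl/fl 1, at 2.92, and of Tph1 in fl/fl 2, at 4.18. These ratios are descriptions, since the cluster was formed from other genes of the same cells.

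**Figure D1:**
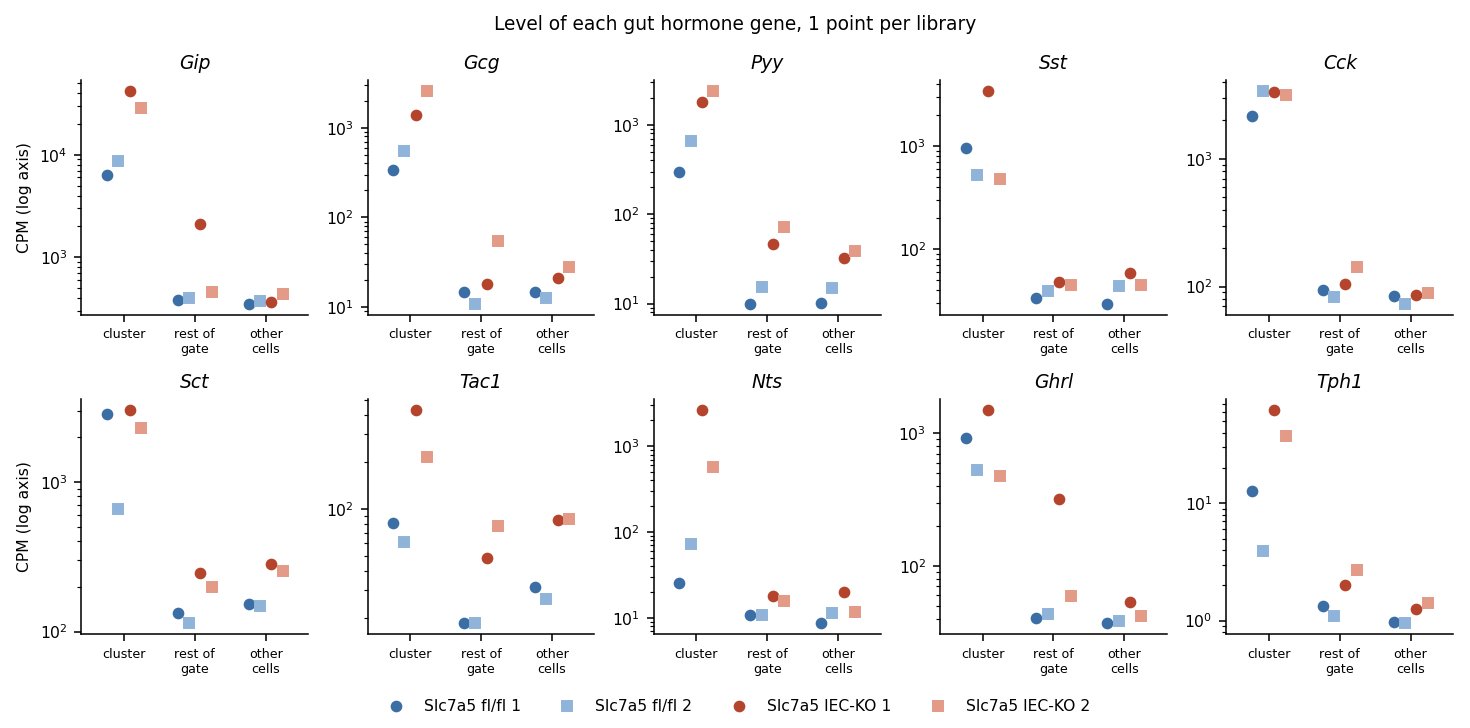
Level of each of the 10 hormone genes in CPM (log axes), 1 point per library, in the enteroendocrine-like cluster, in gated cells outside it (rest of gate) and in cells outside the gate (other cells). The cluster stands above the other cells for every gene and library, from a factor of 2.33 for Tac1 in fl/fl 2 to 130 for Nts in IEC-KO 1, and in the libraries labelled fl/fl the rest of the gate stays near the other cells.

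In gated cells all 10 members were higher in the libraries labelled IEC-KO by edgeR, where 12.6% of the 9495 genes tested were called, 6.67% higher and 5.92% lower. Tph1, at 2.00, 1.24, 31.4 and 12.1 CPM, reached the low-count filter in both libraries labelled IEC-KO but not in both labelled fl/fl. Its change in gated cells is therefore not read as support for a difference. Library size alone moved the median of all genes there by 1.19 and left all 10 members higher. With that scaling most of the genes tested were called higher, so this count is not read as a result about the members. DESeq2 did not call Sst (adjusted p = 0.337), Sct (0.240) or Ghrl (0.610). The changes ran from 1.54 for Sct and 1.57 for Cck and Ghrl to 3.34 for Gip, 3.36 for Gcg, 3.48 for Pyy and 4.96 for Nts. They go with the make-up of the gate above, since few gated cells of the libraries labelled fl/fl lay in the endocrine cluster, and the 2 cannot be told apart within the gate. When the cells were thinned to 3500 UMIs before the gate, only 5 and 5 gated cells were left in the libraries labelled fl/fl and none of the 9 members tested was called by edgeR, with 0 of 944 genes called and 109 at an unadjusted p under 0.05.

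In the enteroendocrine-like cluster 4 of the 10 members were called, all higher in the libraries labelled IEC-KO: Gip, Gcg, Pyy and Nts. Of the 4558 genes tested there 1.51% were called, 0.658% higher and 0.856% lower. Tac1 and Tph1 had changes in the same direction that did not pass, and Sst, Cck, Sct and Ghrl had changes between -0.59 and 0.56. Scaling by library size alone moved the median of all genes in the cluster by 0.81, and under it the changes of Cck, Sct and Ghrl turned from below 0 to 0.24, 0.63 and 0.46, none of them called. Overlap of the levels between genotypes is given below for members only, in the cluster and in other cells. The share of all genes without overlap is not given, so a lack of overlap is a description and not support for a difference.

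**Figure D2:**
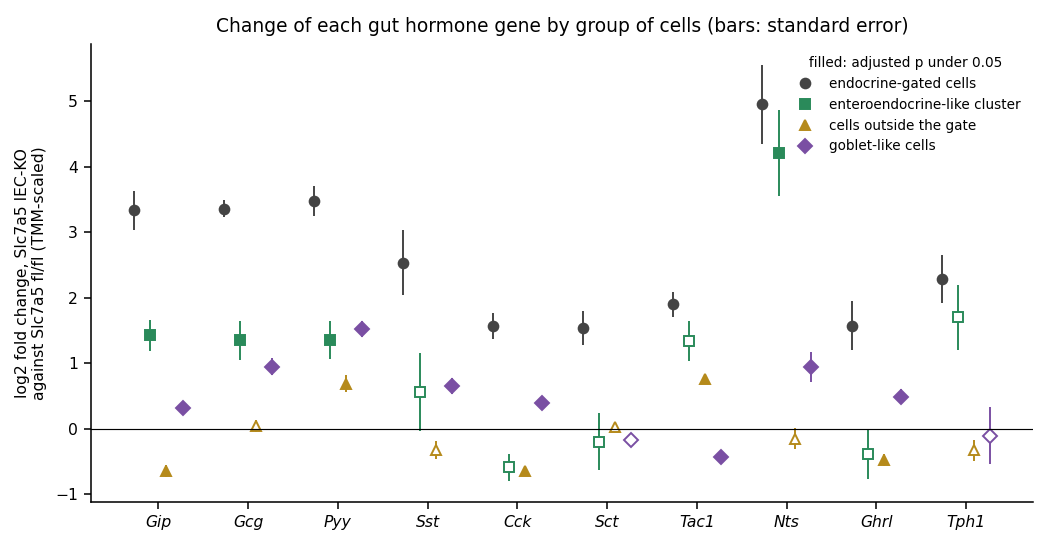
Log2 fold change (IEC-KO against fl/fl, edgeR, TMM) of each hormone gene in gated cells, in the enteroendocrine-like cluster, in cells outside the gate and in goblet-like cells; bars are standard errors and filled points are adjusted p under 0.05. Every member lies above 0 in the gate, whereas in the cluster the points spread from -0.59 for Cck to 4.21 for Nts.

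Gip (chr11:96024545-96030831, plus strand) was the most abundant hormone of the cluster in each library, with 3510, 4357, 38522 and 35931 UMIs. Both libraries labelled IEC-KO were above both labelled fl/fl in its level, and the change was 1.43 (SE 0.235, adjusted p = 0.0072 by edgeR). It was called with each library left out in turn, between 1.15 and 1.69. 1 cell held 50.4% and 47.1% of the Gip UMIs of the cluster in the libraries labelled fl/fl and at most 9% in the others, so the fl/fl levels rest on few cells. The ratio to the 10 endocrine genes of the same cells leaves the Paneth transcripts out. On it Gip stood at 385, 791, 1050 and 1035 UMIs per 100 UMIs of these genes. Without the Gip UMIs of the highest cell of each library it stood at 191, 419, 963 and 942. The endocrine UMIs of that cell stay in the divisor, here and in the like values below. Such values are therefore not ratios of the remaining cells, which are not given.

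Gcg and Pyy are the hormones of L cells: Gcg (chr2:62474530-62483650, minus strand) encodes proglucagon, which is cut to glucagon-like peptides in the gut, and Pyy (chr11:102106676-102107832, minus strand) encodes peptide YY, which slows gastric emptying. The level of Gcg was 340, 554, 1374 and 2567 CPM and that of Pyy 293, 653, 1811 and 2393. The genotypes did not overlap for either gene, on the TMM scale as well, but the share of all genes without overlap is not given. The changes were 1.35 (SE 0.295, adjusted p = 0.0467) for Gcg and 1.36 (SE 0.295, adjusted p = 0.0455) for Pyy by edgeR. Neither call held in every subset of libraries: without IEC-KO 2 the changes were 0.75 for Gcg and 1.06 for Pyy, and without fl/fl 1 that of Gcg was 1.02, none of them called. Per 100 UMIs of the 10 endocrine genes the libraries did overlap, at 20.6, 50.8, 34.3 and 92.3 for Gcg and at 17.8, 59.9, 45.3 and 86.1 for Pyy. A single cell held 93.6% of the Pyy UMIs of the cluster in fl/fl 2. Without the Pyy UMIs of the highest cell of each library, over the same endocrine UMIs, the values were 13.3, 3.81, 22.1 and 57.1. These did not overlap, whereas those of Gcg, taken in the same way, at 10.4, 32.7, 28.9 and 81.3, still did. Whether the remaining cells alone overlap is not given.

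Nts (chr10:102481756-102490486, minus strand) encodes neurotensin, a peptide of the N cells of the lower small intestine that promotes fat uptake. Its level in the cluster was 25.3, 73.3, 2639 and 569 CPM, from 14, 37, 2419 and 710 UMIs. The libraries labelled IEC-KO stood above those labelled fl/fl but also far from each other, and the change of 4.21 (SE 0.649, adjusted p = 0.00458 by edgeR) was the largest of the members. It was called with each library left out, between 2.76 and 5.17. The UMIs came from few cells: at 3500 UMIs per cell only 14 cells of the cluster had at least 5 Nts UMIs, and 1 cell held 71.4%, 83.8%, 41.7% and 32.3% of the gene's UMIs there. Without the Nts UMIs of that cell, over the same endocrine UMIs, the libraries labelled fl/fl had 0.439 and 1.09 per 100 UMIs of the endocrine genes. Those labelled IEC-KO had 38.4 and 13.9.

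Cck and Sct were the hormones found in most cells of the cluster beside Gip. Cck (chr9:121489824-121495694, minus strand) encodes cholecystokinin, which contracts the gall bladder and drives pancreatic enzyme release, and its level was 2171, 3392, 3343 and 3124 CPM. Sct (chr7:141278330-141279133, minus strand) encodes secretin, which drives bicarbonate release from the pancreas, and its level was 2830, 661, 3020 and 2295. These levels overlapped between genotypes for both genes, and the changes were -0.59 (SE 0.204, adjusted p = 0.278 by edgeR) for Cck and -0.19 (SE 0.437, adjusted p = 0.921) for Sct. For Cck the overlap depended on the scale: TMM-scaled levels were 2934, 4680, 2547 and 2511 CPM and the values per 100 UMIs of the endocrine genes were 132, 311, 83.5 and 112, on both of which the IEC-KO libraries were below those labelled fl/fl. Without the Cck UMIs of the highest cell of each library, over the same endocrine UMIs, the latter were 71.5, 221, 65.3 and 101 and overlapped. The value of Sct depended on single libraries, since without fl/fl 1 its change was 1.17 and without fl/fl 2 it was -0.88, both called.

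Sst (chr16:23889573-23890958, minus strand) encodes somatostatin, the D-cell peptide that inhibits other endocrine cells, and Ghrl (chr6:113716119-113719880, minus strand) encodes ghrelin, the hunger hormone of X cells. In the cluster the level of Sst was 966, 519, 3429 and 482 CPM and that of Ghrl 925, 529, 1496 and 476. In these levels the IEC-KO libraries were the highest and the lowest of the 4 for both genes, although on the TMM scale fl/fl 1 was the highest for Ghrl, and neither change was called (0.56 with SE 0.593 and -0.39 with SE 0.386). Without IEC-KO 1 the change of Sst was -1.41 and without IEC-KO 2 it was 1.34, both called, so its direction rests on which of these libraries is kept.

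Tac1 (chr6:7554879-7565834, plus strand) and Tph1 (chr7:46644641-46672537, minus strand) mark enterochromaffin cells, the serotonin cells of the gut. Tph1 encodes the enzyme that limits serotonin synthesis. The level of Tac1 in the cluster was 81.3, 61.4, 429 and 216 CPM, with a change of 1.34 (SE 0.299, adjusted p = 0.0501 by edgeR). The level of Tph1 was 12.6, 3.96, 62.2 and 37.7 from 7, 2, 57 and 47 UMIs, with a change of 1.70 (SE 0.501, adjusted p = 0.176). The genotypes did not overlap for either gene, but neither change passed, and the share of all genes without overlap is not given. Tph1 passed the low-count filter only through the libraries labelled IEC-KO, where it is higher. Its change and lack of overlap were therefore in part fixed by that filter and are not read as support for a difference. At 3500 UMIs per cell 0, 0, 14 and 5 cells of the cluster had at least 5 Tac1 UMIs. All 19 of them also had Chga, a leading gene of the cluster, and 10 and 3 had Tph1. All 19 had the goblet mucus gene Muc2 as well, and 13 and 5 had Fcgbp. Where these goblet transcripts come from was not tested.

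The other genes of the endocrine program were counted by list, with all-gene medians of 0.009 in gated cells and -0.007 in the cluster. Beside each list count in gated cells, here and in the next 2 paragraphs, stand 6.67% of all genes called higher and 5.92% called lower. Of the prohormone processing and granule genes, 14 of 19 tested were higher in gated cells and none lower (median 1.67), among them Pam, which amidates peptides, at 2.28 and Pcsk1, which cuts prohormones, at 1.48. In the cluster 0 of 16 were called by edgeR (median 0.38), with Pam at 0.94 (adjusted p = 0.16) and Pcsk1 at -0.10. 6 of the 24 genes of this list are gate genes, and all 6 are among the 14 called. Its count and its level in gated cells were therefore in part fixed by the gate. Cadps, also called, passed the low-count filter only through the libraries labelled IEC-KO (TMM-scaled levels of 0.313, 0.327, 3.14 and 2.17 CPM).

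Of the endocrine transcription factors, 13 of 23 tested were higher in gated cells and none lower (median 1.57), led by Pax6 at 2.84, Etv1 at 2.59 and St18 at 2.52. 3 of the 25 genes of this list are gate genes too, and Neurod1 and Fev are among those called. St18, at TMM-scaled levels of 0.938, 0.981, 8.98 and 3.95 CPM, passed the low-count filter only through the libraries labelled IEC-KO. Its change was in part fixed by that filter and is not read as support for a difference. In the cluster 0 of 15 were called (median 0.23), and Sox4, a factor of endocrine progenitors, had a change of -0.97 that did not pass (adjusted p = 0.0501). Of the serotonin genes, 4 of 11 were higher and 1 lower in gated cells (median 0.57): Tph1, Gch1 (1.80), Ddc (1.47) and the irritant channel Trpa1 (1.96) were higher and Maoa, which breaks serotonin down, was lower (-0.92). The limit given for St18 also holds for Trpa1, at TMM-scaled levels of 1.56, 0.164, 5.39 and 2.57 CPM in gated cells. None of the 8 tested in the cluster was called (median 0.26), with Ddc at 0.18 and Maoa at -0.71.

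Of the nutrient and bile acid receptors, 6 of 11 were higher and 1 lower in gated cells (median 1.40). The fatty acid receptor Ffar1 was at 2.51, the lipid receptor Gpr119 at 3.09, and the glucose carrier Slc5a1, which enterocytes use as well, was lower at -0.94. Gpr119, at TMM-scaled levels of 0.469, 0.164, 4.49 and 2.17 CPM, passed the low-count filter only through the libraries labelled IEC-KO. Ffar1 reached it in both of these but not in both labelled fl/fl. Their changes and the count of this list were in part fixed by that filter and are not read as support for a difference. In the cluster 0 of 6 were called (median 0.21), with Ffar1 at 0.24. Of 19 further gut peptides only 2 passed the filter: Nucb2, which many cell types express, was lower in gated cells at -0.73 and stood at -0.08 in the cluster, while Iapp (1.14 and -0.64) was not called. By edgeR none of these companion genes was called in the cluster, where 511 of the 4558 genes had an unadjusted p under 0.05, 69 were called, and DESeq2 called 16 higher and 33 lower.

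At 3500 UMIs per cell the leading hormone, the peptide with the most UMIs if at least 5, was Gip in 4, 3, 35 and 30 cells of the cluster. That is 20.0% (95% Clopper-Pearson interval 5.73 to 43.7), 17.6% (3.80 to 43.4), 33.3% (24.4 to 43.2) and 34.5% (24.6 to 45.4) of its cells. Cck led in 15%, 29.4%, 8.57% and 8.05%, Gcg in 0, 0, 3 and 8 cells, and Nts in 0, 0, 5 and 3. The intervals of the libraries labelled fl/fl, with 20 and 17 cells, reach over those of the others for Gip. The shares themselves did not overlap between genotypes for Gip or for Cck. The exact permutation test gave p = 0.333 for both (adjusted p = 0.6 over the hormones). That is the smallest p possible with 2 against 2 libraries, so the test could not detect a shift at any number of cells. In 6, 7, 21 and 22 cells no peptide reached 5 UMIs without a tie. In gated cells no hormone led in 141, 141, 31 and 89 cells, and Gip led in 3.75%, 1.99%, 30.9% and 18.9%.

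Pairs of hormones per cell were counted over the 229 cells of the cluster, thinned to 3500 UMIs, where 78 cells had at least 5 UMIs of Gip, 78 of Cck, 95 of Sct, 36 of Gcg, 29 of Pyy, 24 of Ghrl, 19 of Tac1, 15 of Sst and 14 of Nts. Gcg and Pyy shared most: 25 of the 40 cells with either had both (62.5%), that is 69.4% of the Gcg cells and 86.2% of the Pyy cells. By library these were 0 of 4, 1 of 2, 8 of 13 and 16 of 21 cells. Cck accompanied them, in 34 of 36 Gcg cells (94.4%) and 26 of 29 Pyy cells (89.7%). Cck and Sct were together in 54 of 119 cells with either, and Sct was in 11 of the 14 Nts cells.

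Gip was seldom with the L-cell peptides. 4 of its 78 cells had Gcg and 2 had Pyy, whereas 29 had Cck and 41 had Sct. No cell had Gip with Tac1 or with Nts, and none had Sst with Cck, while 5 of the 15 Sst cells had Ghrl, all of them in IEC-KO 1. In gated cells the share of Gcg and Pyy cells with both was 61.5%, and it was 78.3% when the cells were thinned before the gate and 29.8% when 1 UMI was enough. These counts pool the libraries, and most cells come from those labelled IEC-KO. The number of peptides per cell reached 5 at most in the cluster, in 0, 1, 4 and 6 cells. Doublets were kept, and their part in these counts was not tested.

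**Figure D3:**
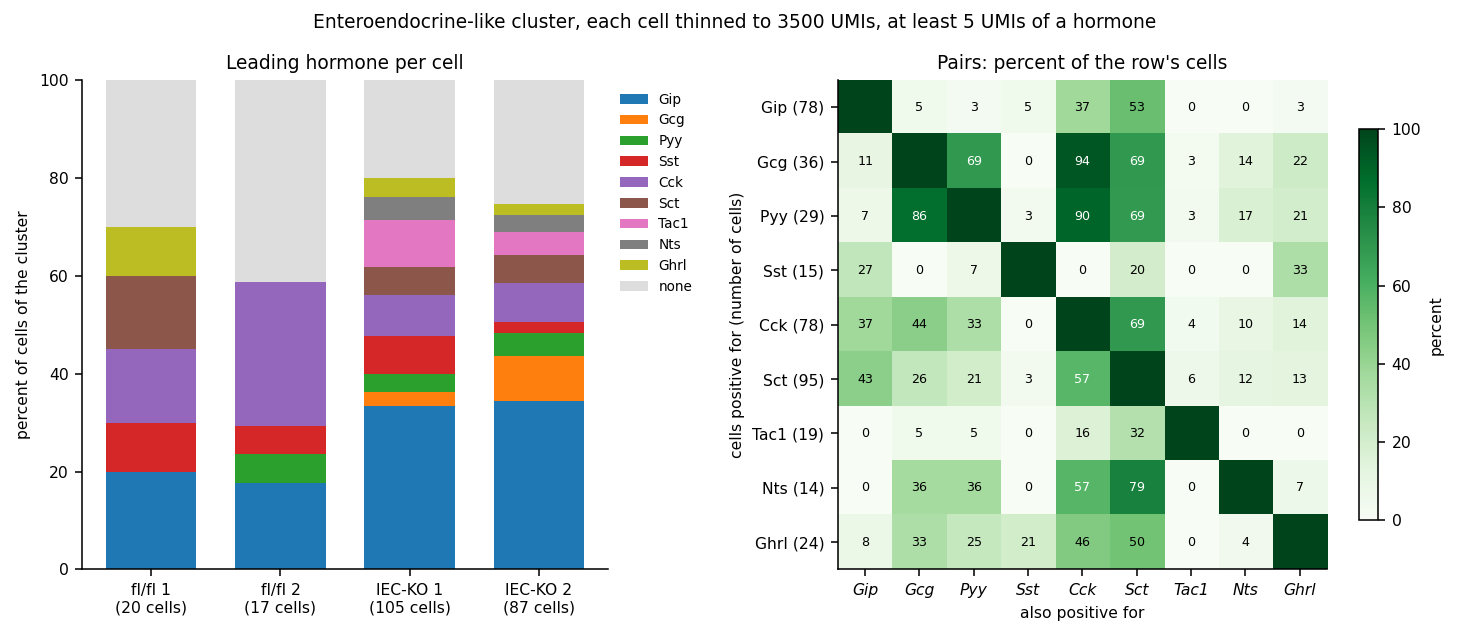
Left, share of the cells of the enteroendocrine-like cluster led by each hormone in each library (percent, at 3500 UMIs per cell, none meaning no peptide with 5 UMIs or a tie); right, of the cells with at least 5 UMIs of the hormone in the row (number in brackets), the percent that also had 5 of the hormone in the column. Gip leads in 33.3% and 34.5% of the cells of the IEC-KO libraries, and 94.4% of the Gcg cells also had Cck.

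The genes most like each hormone over the 580 gated cells were found by Pearson's correlation of log counts at 3500 UMIs, averaged over the 4 libraries and given with no p, since cells of a library share its depth and its make-up of cell types. For Gip they were Fabp5 (0.666), a fatty acid binding protein, Rbp4 (0.421), which carries retinol, and Rbp2 (0.416). For Cck and Sct the leading genes were the same 3, Scg2, Myl7 and Cpe, with 0.568 for Scg2 and Cck and 0.544 for Myl7 and Sct. For Gcg the first was Fars2 (0.457), Pyy and Gcg both went with the factor Etv1 (0.508 and 0.446), and Tac1 went with the granins Chga (0.598) and Chgb (0.528). For Ghrl the first was Cdkn1a (0.352). Chga, Chgb and Cpe are gate genes, on which these cells were selected. These 3 and Fabp5, Myl7 and Scg2 are also among the 10 leading genes of the enteroendocrine-like cluster, which held 205 of the 580 cells. Their likeness to a hormone within that cluster is not given here. The values of single libraries varied: Rbp2 and Gip had -0.051 in fl/fl 2 and 0.782 in IEC-KO 1.

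Outside the gate, stray hormone transcripts were common. At 3500 UMIs per cell at least 1 Gip UMI was met in 65.4%, 67.7%, 67.4% and 74.4% of these cells, and in the Paneth-like cells among them, which should lack it and had median depths of 45022.5, 51344.5, 10456 and 16060.5 UMIs, in 72.4%, 73.1%, 73.6% and 78.5%. Sct was met in 43.6%, 43.4%, 57.5% and 56.2%, Cck in 22.8%, 20.0%, 24.7% and 24.7%, and Tph1 in at most 0.463%. The stray level of Gip was close in all libraries, at 347, 371, 362 and 439 CPM. On this scale every other member was higher in both libraries labelled IEC-KO. Among them were Pyy at 10.0, 14.9, 32.2 and 38.5, Tac1 at 31.5, 26.4, 84.6 and 86.3, and Sct at 152, 148, 282 and 254. The median of all genes also rose on this scale, as given below, and the share of all genes with the same order is not given. The order is therefore not read as a result about the members.

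By edgeR 5 members were called outside the gate, where 41.6% of the 13385 genes tested were called, so the count of members is near the background. Pyy (0.69) and Tac1 (0.76) were higher and Gip (-0.65), Cck (-0.65) and Ghrl (-0.47) lower. The TMM scale moved these values: with library size alone, which shifted the median of all genes by 0.795, Gip stood at 0.16 and Cck at 0.15, neither called, and Ghrl at 0.34, called higher. Pyy and Tac1 were higher on both scales. The number of called members varied with the setting and is not read as a result about the members.

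The ratios of stray hormones were compared between the cell types of a library, taken without the highest cell of each gene, class and library. Per 100 Gip UMIs, Paneth-like cells had 24.4, 19.7, 23.9 and 20.6 of Cck and goblet-like cells 23.1, 19.6, 24.6 and 20.7. For Gcg, Pyy, Sst, Cck, Nts and Ghrl the ratio of goblet-like to Paneth-like cells lay between 0.896 and 1.13 in all libraries, that of transit-amplifying-like cells between 0.695 and 1.24, both for Nts, and that of enterocyte-like cells between 0.798 for Pyy and 1.30 for Nts. Sct and Tac1 stood apart: that ratio was 5.22, 4.40, 2.31 and 2.21 for Sct and 12.2, 13.2, 3.99 and 3.57 for Tac1. Transit-amplifying-like cells, the dividing progenitors, also had more Sct than Paneth-like cells, by factors of 3.72, 3.03, 1.88 and 1.92, and more Tac1, by 3.55, 3.36, 1.97 and 1.97. In enterocyte-like cells the factors for Tac1 were 2.38, 1.49, 1.21 and 1.56.

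**Figure D4:**
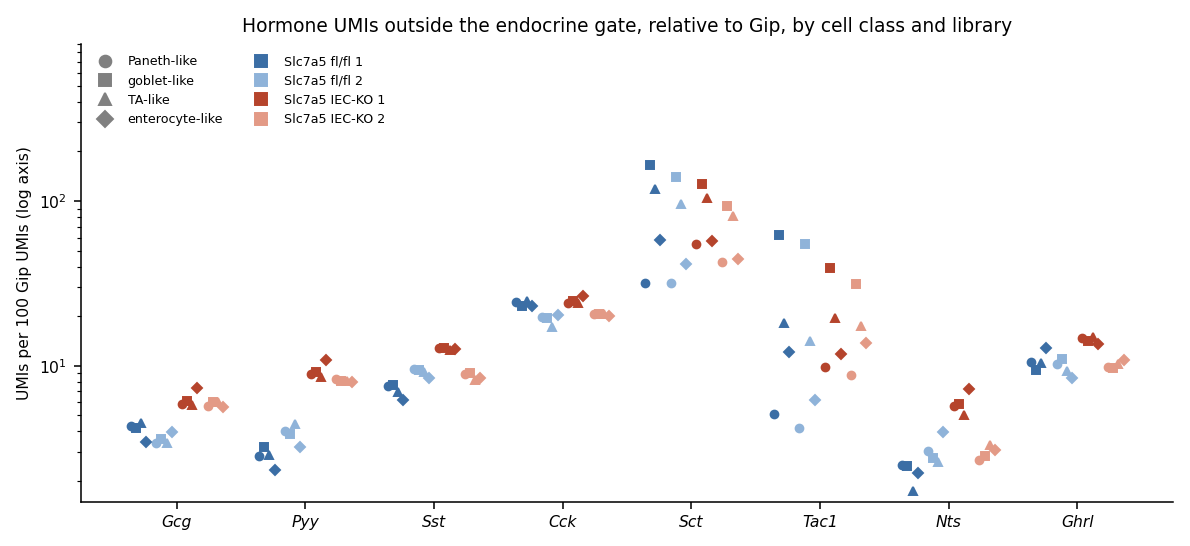
UMIs of each hormone per 100 Gip UMIs in cells outside the gate (log axis), 1 point per library (colour) and cell class (shape; TA-like stands for transit-amplifying-like), without the highest cell of each. Goblet-like cells lie within factors of 0.896 to 1.13 of Paneth-like cells of the same library for Gcg, Pyy, Sst, Cck, Nts and Ghrl, and above Paneth-like cells for Sct, up to a factor of 5.22, and for Tac1, up to 13.2.

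The stray ratios did not match the cluster of the same library for every gene. With all cells kept on both sides, Nts stood at 0.399, 0.849, 6.28 and 1.98 per 100 Gip UMIs in the cluster and at 2.51, 3.05, 5.74 and 2.67 in Paneth-like cells. Sct stood at 44.6, 7.67, 7.19 and 7.97 in the cluster and at 31.7, 32.0, 55.2 and 42.5 in Paneth-like cells. In the libraries labelled fl/fl single cells held much of the Gip and Nts UMIs of the cluster, as given above, so its ratios there rest on few cells. 2 cells outside both gate and cluster held large amounts of Sst: 945 of 6410 UMIs (14.7%) in an enterocyte-like cell of IEC-KO 2 and 903 of 10979 UMIs (8.22%) in a tuft-like cell of fl/fl 2, with 20 and 69 Ghrl UMIs. They had 2 and 3 of the gate genes, 1 or more short of the gate. The fl/fl 2 cell alone held 18.9% of all Sst UMIs outside the gate in its library.

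Tac1 was examined in goblet-like cells, the mucus-secreting cells, of which 686, 530, 3656 and 3483 lay outside the gate. Its level there was 159, 159, 123 and 121 CPM from 1193, 1012, 2856 and 3890 UMIs, against 19.1, 16.4, 39.2 and 40.5 in Paneth-like cells. Both libraries labelled IEC-KO were below both labelled fl/fl, and the change was -0.44 (SE 0.070, adjusted p = 0.000105 by edgeR), in a comparison where 17.4% of 11065 genes were called, 8.8% higher and 8.63% lower. Sct, the other hormone above its stray ratio in these cells, was at 418, 398, 395 and 361 with a change of -0.16 that was not called (adjusted p = 0.132). Of the others Gip, Gcg, Pyy, Sst, Cck, Nts and Ghrl were higher in goblet-like cells, by 0.32 for Gip to 1.52 for Pyy. A test of the difference itself between the changes of goblet-like and Paneth-like cells called 8 members, with 20% of 12533 genes called on the TMM scale and 64.7% with library size alone, where 4 members were called.

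At 3500 UMIs per cell 28.9%, 31.1%, 23.4% and 26.1% of the goblet-like cells had a Tac1 UMI, against 6.01%, 5.67%, 12.6% and 12.7% of Paneth-like cells. Cells with at least 5 Tac1 UMIs numbered 19, 12, 69 and 41, of which 0, 0, 1 and 0 had Tph1. At the same depth 10 of 14 and 3 of 5 such cells of the endocrine cluster had Tph1 in the libraries labelled IEC-KO.

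Most goblet-like cells of the 2 genotypes lay in different clusters, between which the order of the Tac1 levels differed. The cluster led by Zg16, Clca1 and Scin held 501, 386, 805 and 805 of them, and its Tac1 level was 205, 209, 87.9 and 109. The cluster led by Hsd17b2, Rgs2 and Clca1 held 42, 32, 1540 and 1453, and its Tac1 level was 26.1, 45.9, 200 and 177. In the third, led by Ccl9, Mt3 and Cd74, the level was 61.2, 43.8, 60.0 and 69.3 in 138, 110, 1275 and 1183 cells. The cluster with most goblet-like cells of the libraries labelled fl/fl had less Tac1 in those labelled IEC-KO, and the reverse held in the cluster that was almost absent from the libraries labelled fl/fl. The difference between these clusters was not tested.

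The highest Tac1 level of any class outside the endocrine cluster was in a cluster led by Plet1, Tat and Lrg1, which took no class name and of which 17, 14, 531 and 590 cells lay outside the gate. 14 of the 26 goblet markers counted for it, none of them among its 10 leading genes. Its Tac1 level was 171, 167, 534 and 514 CPM, and the genotypes did not overlap. By edgeR Tac1 was higher in the libraries labelled IEC-KO by 1.69 (SE 0.141, adjusted p = 0.00108) and Sct was lower (-1.04, SE 0.151, adjusted p = 0.0142), where 1.4% of 7763 genes were called. Of these cells 0, 0, 73 and 79 had at least 5 Tac1 UMIs at 3500 UMIs per cell, and none of those had Tph1. With this cluster counted as goblet-like the change of Tac1 was 0.09 (adjusted p = 0.391), so the fall of Tac1 in goblet-like cells depends on which clusters carry that name.

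**Figure D5:**
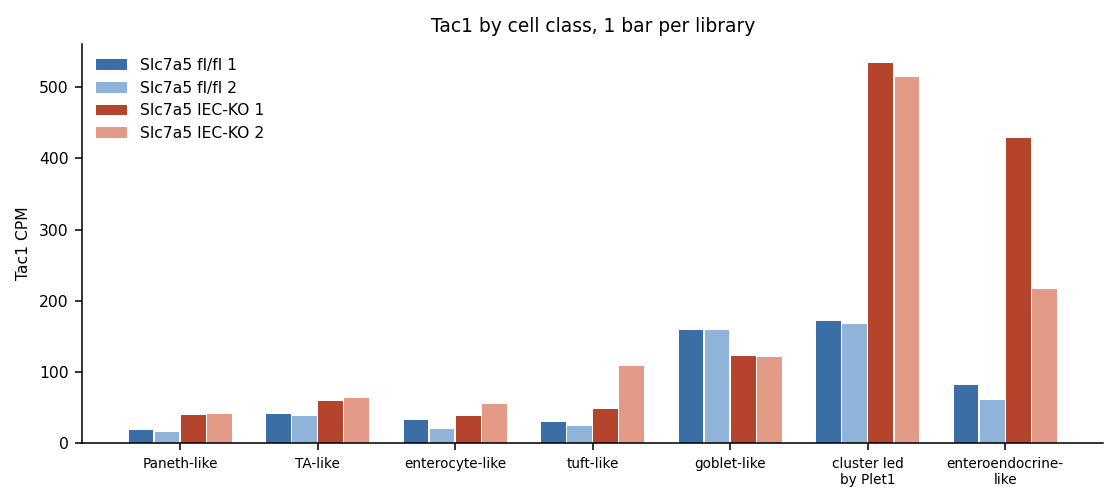
Tac1 level in CPM, 1 bar per library, by cell class and in the cluster led by Plet1; all cells lie outside the gate except in the enteroendocrine-like cluster. The cluster led by Plet1 is highest, at 534 and 514 in the libraries labelled IEC-KO, and goblet-like cells lie between 121 and 159 in all 4.

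In the transit-amplifying-like cells all 9 members tested were higher in the libraries labelled IEC-KO (9.04% of 10781 genes called by edgeR), from 0.32 for Sct to 1.71 for Pyy. In enterocyte-like cells 4 of 9 were higher (3.7% of 9397 genes called): Sst (2.18), Pyy (1.77), Gcg (0.83) and Tac1 (0.62). With library size alone, which moved the median there by 0.219, 6 were higher. The share of all genes called with that scaling is not given here, so the 6 are not read as a result about the members. The Sst level in enterocyte-like cells was 16.4, 26.2, 37.8 and 181 CPM. The cell with 945 Sst UMIs lies in this class, which had 1155 in IEC-KO 2 in all. In Paneth-like cells, where 45.7% of 12628 genes were called, Pyy (0.68) and Tac1 (0.38) were higher and Gip (-0.63), Cck (-0.61), Ghrl (-0.42) and Sst (-0.31) lower. With library size alone, which shifted the median of all genes in Paneth-like cells by 0.787, Gip stood at 0.17 and Cck at 0.18, neither called, and Ghrl at 0.38 and Sst at 0.50 were higher, so only the directions of Pyy and Tac1 among these 6 held on both scales.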

How the data were processed

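The authors deposited raw UMI counts per gene and cell barcode for 4 libraries after cell calling, unnormalized. The submitters' processing notes name Cell Ranger 2.1.1 and build mm10, while the paper's methods give another version. All 26498 barcodes were kept, doublets included.

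Counts were summed per library over gated cells (4 or more of 10 endocrine genes), over the other cells and over goblet-like cells outside the gate, and fitted in edgeR 4.0.16 by quasi-likelihood (filterByExpr for low counts, TMM scaling, adjusted p under 0.05 after Benjamini-Hochberg). Standard errors are the change over the root of F. Cells were clustered with Leiden at resolution 1 (2000 variable genes, 30 components, 20 neighbours), leaving out the 10 hormones and 841 genes of the study's Paneth cell lists. A cluster took a class name from its markers, with at least 3 counted. Leading hormones and pairs used cells thinned to 3500 UMIs. The marker lists of the other cell types, the hormones and the companion lists were chosen with earlier results of these data known, and the use of the enteroendocrine-like cluster beside the gate was chosen after its cells were seen. The text names all members, companion genes called in gated cells, the 2 highest of each list, and the 3 genes most like each member with 20 positive cells; the genes that lead a cluster were named after their values were seen. The edgeR fit with TMM scaling was tested on simulated counts for gated cells, the cluster, other cells and goblet-like cells. That simulation used the same spread for all genes and did not model UMIs held by a single cell. It did not cover library size scaling, DESeq2, the replicate block, left-out libraries or the interaction model. Alternatives included library size scaling, DESeq2 1.42.0, no filter, other gates, thinning, 1 UMI limit, each library left out, and the replicate number as a block. Shares were compared with an exact permutation test.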

Additional observations from a re-analysis of the deposited data

Results flagged for a closer look

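The change between genotypes differed between goblet-like and Paneth-like cells for 8 members, by the interaction term of 1 edgeR model over both sums of each library (20% of 12533 genes called). On the TMM scale the change in goblet-like minus that in Paneth-like cells was 0.95 for Gip, 0.99 for Gcg, 0.81 for Pyy, 0.95 for Sst, 1.01 for Cck, 1.05 for Nts and 0.92 for Ghrl, and -0.81 for Tac1. Sct had -0.14 (adjusted p = 0.0625) and Tph1 0.095 (adjusted p = 0.92). With library size alone, where 64.7% of genes were called, Tac1 stood at -1.55 and Sct at -0.88, both called. Gip (0.21) and Cck (0.27) stayed called at smaller values, and Gcg (0.25), Pyy (0.06), Sst (0.21), Nts (0.31) and Ghrl (0.18) were not called. The sign for Tac1 was therefore the same on both scales and opposite to that of the 7 other members.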

How the results depend on the processing

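Members higher in IEC-KO numbered 10 in the gate with 633 genes higher and 562 lower, and 9 to 10 with a library left out (without IEC-KO 1 Ghrl stood at 0.27, not called; all genes called 567 to 1192). The count was 10 with library size (7663 genes higher and 31 lower), no filter and 3 gate genes, 7 with DESeq2 (236 and 123), 9 under 1 UMI limit, 4 with 5 gate genes (106 and 116), and 0 when thinned before the gate, with Cck at -0.27 and Sct at -0.30. The 10 in the gate hold Tph1, whose change there is not read as support for a difference. Fewer cells entered the last 2 settings. Settings on the cluster, on cells outside both gate and cluster (7 members called) and with the cluster led by Plet1 were chosen after seeing the data. In the cluster the count was 4 (30 genes higher and 39 lower). It was 5 in the gated cells of the cluster, 2 thinned and 2 under 1 limit. With DESeq2 it was 5, with library size 7 (2491 and 32 genes) and with the replicate block 6. Where no count of all genes stands beside it, a count of members is not read as a result about the members.

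In the same order of settings (cluster, its gated cells, thinned, 1 limit, DESeq2, block) Cck stood at -0.59, -0.62, -0.79, -0.78, -0.61 and -0.55 and at -0.90, -0.21, -0.63 and -0.61 with each library left out, against 1.57 in the gate. Sct stood at -0.19, -0.17, -0.41, -0.47 and -0.21 in the first 5, and at 1.17, -0.88, -0.39 and -0.071 with each library left out. Ghrl stood at -0.39, -0.49, -1.74 (1 limit, adjusted p = 0.00118), -0.40 (DESeq2) and -0.51 (block), and at 0.046, -0.72, -1.40 and 0.17 with each library left out. Sst stood at -0.011 under 1 limit and at -1.41 to 1.34 with a library left out. The cause was not tested.

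Outside the gate 5 members were called, where 41.6% of 13385 genes were called, against 8 with library size, 3 with DESeq2 and 9 in cells with no gate gene. The share of all genes called in these other settings is not given here, so the counts are not read as results about the members. With library size Gip stood at 0.16, Sst 0.50, Cck 0.15, Nts 0.67, Ghrl 0.34 and Tph1 0.47. In cells with no gate gene Gip stood at 0.29, Sst 0.64, Cck 0.34, Nts 0.93 and Ghrl 0.50, and when thinned Gip at 0.14 and Nts at 0.64; with a library left out Gcg stood at -0.19 to 0.23. The cause was not tested. Tac1 in goblet-like cells was -0.46 to -0.41 with a library left out and fell by every setting but 3: 0.093 with the cluster led by Plet1, 1.69 in that cluster alone, and 0.76 with 4 of 8 goblet genes, a rule met by nearly all cells, where Gip stood at -0.65, Sst -0.32, Cck -0.65, Nts -0.15 and Ghrl -0.48.

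The share of gated cells (difference -3.17 points, -3.45 to -2.90 with a library left out) turned to 0.296 when thinned, 0.436 in the cluster and 0.639 there under 1 limit. In the gate the difference was -2.67 under 1 limit, -12.4 with 3 gate genes and -0.136 with 5, where the genotypes overlapped. The share of cells led by Gip differed by 22.0 points in the gate (16 to 28.0 with a library left out), 10.4 with 3 gate genes and -3.52 with at least 1 UMI. Gcg and Pyy were together in 61.5% of the gated cells with either (47.4 to 68.6), in 78.3% when thinned first and in 29.8% at 1 UMI. The median ratio of gated to stray levels was 1.86 in the libraries labelled fl/fl (1.37 with 3 and 4.73 with 5 gate genes, 27.9 thinned, 16.7 in the cluster) and 18.7 in those labelled IEC-KO (61.3 thinned, 41.9 in the cluster). Differences between replicates were nearly uncorrelated between the genotypes (correlations between -0.001 and 0.041). This cannot settle whether the libraries were paired, since the labels do not say what the replicate numbers stand for. The block gave 10 members in the gate and -0.44 for Tac1. With it 724 genes were higher and 630 lower in the gate, against 633 and 562 without it. In the cluster these were 58 and 73, against 30 and 39.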
